A study of Mus musculus with 653 samples.

Results

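The platelet-derived growth factor (PDGF) receptors *Pdgfra* and *Pdgfrb*, the ligands *Pdgfa*, *Pdgfb*, *Pdgfc* and *Pdgfd*, and the intermediate filament gene *Des* (desmin) were followed through single cells of the mouse embryonic liver. These 7 genes were chosen by name from the 54195 genes of a raw read count table, and all 7 had reads. PDGF ligands are secreted as disulphide-linked dimers that bring a pair of receptor tyrosine kinases together at the cell surface. The α receptor marks many embryonic mesenchymal cells, whereas the β receptor is best known on pericytes, smooth muscle and hepatic stellate cells. Desmin is the filament protein of muscle and is widely used, with the receptors, to recognise stellate cells in liver.

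The 653 cells, each its own Smart-seq2 library, came from crosses of male Lgr5-EGFP-IRES-creERT2 mice, in which the *Lgr5* locus drives GFP, with MF1 females. Cells that carried the Liv2 antigen but neither CD31 nor CD45 were sorted as bulk or were further gated for GFP. Of the 653 cells 31.1% were E10.5 bulk, 32.3% E10.5 Lgr5-GFP+, 24.3% E13.5 bulk and 12.3% (80 cells) E13.5 Lgr5-GFP+ cells, and which bulk cells came from embryos carrying the allele is not given in the labels. Since no label names an animal, litter or sort, the 4 groups have no replicates here and no p-value is given. Intervals are exact 95% ranges (Clopper-Pearson for shares, Poisson for summed reads) that cover counting error only. GFP was the sorting criterion of the Lgr5-GFP+ groups, and digestion was longer at E13.5 than at E10.5, so stage and digestion cannot be told apart.

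Lineage classes were set by more than 10 reads of *Afp* (a hepatoblast gene), *Klf1* (an erythroid transcription factor) or *Col3a1* (a fibrillar collagen). There were 54 *Afp* cells (8.27%), 244 *Col3a1* cells (37.4%) and 24.2% *Klf1* cells, while 27.3% of cells passed for none of the markers and 19 cells passed for more than 1 and were set aside. Although the labels call every cell a liver hepatoblast, the summed level of 10 hepatoblast genes was 19968 reads per 1000000 reads on genes (RPM) in the *Afp* class but 331 RPM in the *Col3a1* class. In the *Col3a1* class 14 mesenchymal genes summed to 5661 RPM, against 102.01 RPM in the *Afp* class, and 10 erythroid genes summed to 7660 RPM in the *Klf1* class. Each of these lists includes the marker that set its class, so part of each difference was fixed by the rule. The *Col3a1* class held 213 E10.5 cells, of which 97 were Lgr5-GFP+ and 54.5% bulk, and 31 E13.5 cells, of which 28 were Lgr5-GFP+ and 3 bulk, so that levels in it are mainly E10.5 levels. Near the limit, 30 cells had 6 to 10 *Col3a1* reads and 19 had 11 to 20. Cells had between 463347 and 2279700 reads (median 1192740) and were sequenced in 5 library pools. At E10.5 the *Col3a1* cells of pools 1 and 2 had medians of 4574 and 4505 detected genes, against 6162 to 6861 in pools 3 to 5, so values are also given by pool.

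In the mouse GRCm38 annotation *Pdgfra* (ENSMUSG00000029231) spans chr5:75152292-75198215 on the plus strand, *Pdgfa* (ENSMUSG00000025856) chr5:138976014-138997370 on the minus strand and *Pdgfb* (ENSMUSG00000000489) chr15:79995874-80014977 on the minus strand. *Pdgfc* (ENSMUSG00000028019) spans chr3:81036416-81214040, *Pdgfd* (ENSMUSG00000032006) chr9:6168584-6378850 and *Des* (ENSMUSG00000026208) chr1:75360329-75368579, all on the plus strand. Reads were counted over exons, which total 10.02 kb for *Pdgfra*, 5.48 kb for *Pdgfrb* (ENSMUSG00000024620) and 3.12 to 5.09 kb for the others. The kit does not keep the strand, so reads in stretches where *Pdgfa*, *Pdgfb* and *Des* overlap other genes cannot be told apart, but those neighbours had at most 295 reads over all cells, against 24923, 4016 and 23136 for the members.

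Transcription start windows, as given by RefSeq on GRCm38.p6, ran from 250 bases before to 50 bases after the start. They were read for *Pdgfra*, *Pdgfa*, *Pdgfc*, *Pdgfd* and *Des*, and none was read for *Pdgfrb* or *Pdgfb*. Of the members read, the 3 whose positive cells lay most often in the *Col3a1* class are shown. Capitals mark E-boxes (CANNTG), the letters bound by helix-loop-helix factors such as the Twist and myogenic families, and, in *Pdgfc*, the CArG box, the motif of serum response factor. The windows lie at chr5:75152001-75152300 for *Pdgfra*, chr1:75360042-75360341 for *Des* and chr3:81036166-81036465 for *Pdgfc*, all on the plus strand.
Pdgfra: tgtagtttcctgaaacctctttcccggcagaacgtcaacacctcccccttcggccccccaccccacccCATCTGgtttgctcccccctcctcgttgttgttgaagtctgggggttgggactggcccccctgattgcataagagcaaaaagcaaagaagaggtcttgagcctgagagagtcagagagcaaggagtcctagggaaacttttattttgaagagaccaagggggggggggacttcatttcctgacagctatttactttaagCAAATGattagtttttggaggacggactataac
Des: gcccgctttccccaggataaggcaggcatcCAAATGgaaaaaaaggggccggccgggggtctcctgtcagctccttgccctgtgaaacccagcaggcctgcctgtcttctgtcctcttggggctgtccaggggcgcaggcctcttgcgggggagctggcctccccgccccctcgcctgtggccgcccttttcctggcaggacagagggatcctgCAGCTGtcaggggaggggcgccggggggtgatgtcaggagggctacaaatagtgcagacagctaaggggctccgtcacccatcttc
Pdgfc: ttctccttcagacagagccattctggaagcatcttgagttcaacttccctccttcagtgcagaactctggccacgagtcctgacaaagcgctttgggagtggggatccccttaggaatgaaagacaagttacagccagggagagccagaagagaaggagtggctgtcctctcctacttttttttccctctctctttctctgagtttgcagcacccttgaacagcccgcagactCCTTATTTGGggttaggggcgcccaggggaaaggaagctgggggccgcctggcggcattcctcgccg
Counting from the start site, the *Pdgfra* window held E-boxes at -182 and 18 and the *Des* window at -220 and -36. The second *Des* site was CAGCTG, the E-box form known from myogenic factors, whose letters are also counted as CANNTG. Of all 32851 mouse windows of this length, 72.3% held a CANNTG on either strand, 16.3% a CAGCTG and 1.63% a CArG box. The E-boxes are therefore common letters, whereas the CArG box of *Pdgfc* at -17 is held by few windows. *Des* also held a pair of GC boxes (GGGCGG on the other strand) at -87 and -69, a motif found in 35.7% of windows. The GC content was 51% for *Pdgfra*, 65.3% for *Des* and 55% for *Pdgfc*, against a median of 52.7% over all windows. None of the 3 windows held TATAAA (13.6% of windows) or CCAAT (37.4% of windows). These matches describe the letters and were not tested for binding.

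Both receptors were found mostly in cells with *Col3a1* reads. *Pdgfra*, the receptor that binds the A, B and C chains, had more than 10 reads in 54.1% (interval 47.6–60.5) of 244 *Col3a1* cells, in 1 *Klf1* cell (0.633%) and in 0 of 54 *Afp* cells, which allows up to 6.60%. Its summed level was 175.98 RPM (174.48–177.49) in *Col3a1* cells, 42.3 RPM in cells with no marker, 0.374 RPM in *Klf1* cells and 0.332 RPM in *Afp* cells. *Pdgfra* was thus lower by more than 8 log2 units in both other marked classes, and its distribution over cells was wide, from 0 to 1898 RPM with a median of 22.6 RPM among *Col3a1* cells. *Pdgfrb*, which binds the B and D chains, passed in 77 *Col3a1* cells (31.6%, 25.8–37.8), in 3 *Klf1* cells (1.90%) and in 0 *Afp* cells. Its level was 99.8 RPM in *Col3a1* cells, 34.6 RPM with no marker, 0.867 RPM in *Klf1* cells and 0.467 RPM in *Afp* cells. Without pool 1 the *Pdgfrb* level was 66.7 RPM in *Col3a1* cells and 3.69 RPM in cells with no marker. The *Col3a1* class held 83.02% of all *Pdgfra*-positive cells, which were 24.3% of the 653, and 78.6% of all 98 *Pdgfrb*-positive cells.

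The limit of 10 reads bears on these shares. Just around it few cells lay, since 1 cell had 6 to 10 *Pdgfra* reads and 10 had 11 to 20, while 6 and 8 cells did so for *Pdgfrb*; 359 cells had no *Pdgfra* read and 437 no *Pdgfrb* read. Most remaining cells below the limit had 1 to 5 reads. Counting any read as positive gave a share of E10.5 *Col3a1* cells with *Pdgfrb* of 53.99% in place of 32.9%, and asking for more than 50 reads gave 24.4%. Compared with *Afp* cells, the *Col3a1* class was higher by 9.05 log2 units for *Pdgfra* (8.73 to 9.84 over the 4 pools with enough cells of both) and by 7.74 for *Pdgfrb* (6.84 to 7.99). Of the 7 members, 6 were at least 2-fold higher in *Col3a1* than in *Afp* cells, where 37% of all genes tested were that much higher and 14.2% that much lower. Against *Klf1* cells 6 of 7 were also at least 2-fold higher, with 40% of all genes higher and 15% lower. The exceptions were *Pdgfa* against *Afp* cells and *Pdgfb* against *Klf1* cells.

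**Figure D1:**
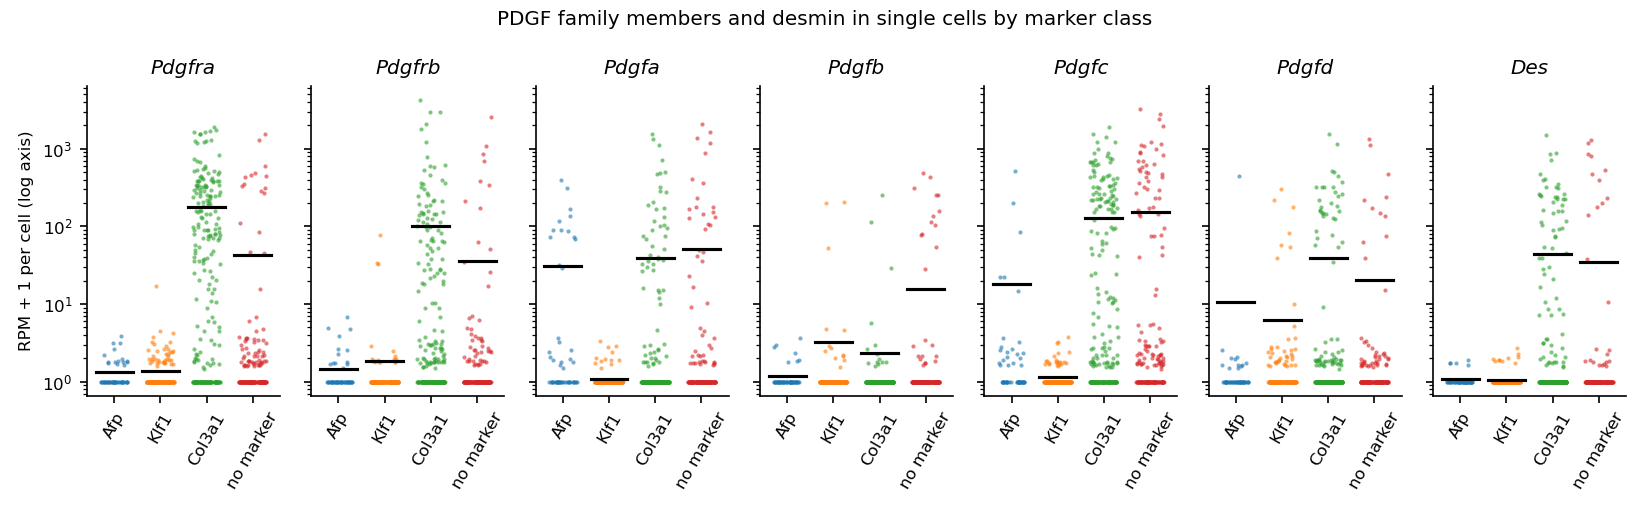
Level of each member in every cell of the 4 lineage classes, in RPM + 1 on a log axis, with 1 point per cell and a black line at the summed level of the class. *Pdgfra* (175.98 RPM) and *Pdgfrb* (99.8 RPM) stood high in the *Col3a1* class and below 1 RPM in the *Afp* and *Klf1* classes, whereas *Pdgfa* was also present in *Afp* cells (29.7 RPM).

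At E10.5, 213 *Col3a1* cells could be split by their receptors. Of them, 69 (32.4%) had *Pdgfra* only, 55 (25.8%) had both receptors, 15 (7.04%) had *Pdgfrb* only and 74 (34.7%) had neither. Most *Pdgfrb* cells therefore also carried *Pdgfra*, in 55 of 70 (78.6%), whereas 44.4% (35.4–53.5) of *Pdgfra* cells carried *Pdgfrb*. Among the 89 cells without *Pdgfra*, 16.9% (9.75–26.3) had *Pdgfrb*. With both sorts counted, the share of *Pdgfrb* was higher in *Pdgfra* cells than in the rest within each of the 5 pools. The counts were 8 of 21 against 4 of 26, 2 of 14 against 2 of 18, 17 of 29 against 3 of 15, 20 of 37 against 4 of 15 and 8 of 23 against 2 of 15. In pools 1, 2 and 5 these counts are small, and pool 2 had the smallest gap between them. In bulk cells alone the share was higher in pools 1, 3 and 5. It was lower in pool 2 (1 of 9 against 2 of 12) and pool 4 (3 of 15 against 2 of 8). Over all bulk cells the shares were 25.4% (15.5–37.5) and 16.3% (7.32–29.7), and these intervals overlap. In Lgr5-GFP+ cells they were 66.7% (52.9–78.6) and 17.5% (7.34–32.8).

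The 4 receptor classes were sequenced to similar depth but differed in detected genes, with medians of 6773 genes in cells with both receptors, 5622 with *Pdgfra* only, 6011 with *Pdgfrb* only and 5162.5 with neither. The part of this in the split was not tested. When every cell was thinned to 100000 reads and any read was counted, 27.7% had both receptors and *Pdgfrb* was found in 45.7% of *Pdgfra* cells against 23.8% of the rest. Within the 55 cells with both, neither receptor prevailed. Per kilobase of exon, *Pdgfra* was higher in 23 of these cells and *Pdgfrb* in 32, and the log2 ratio of *Pdgfra* to *Pdgfrb* ran from -8.33 to 3.90 with a median of -0.29.

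**Figure D2:**
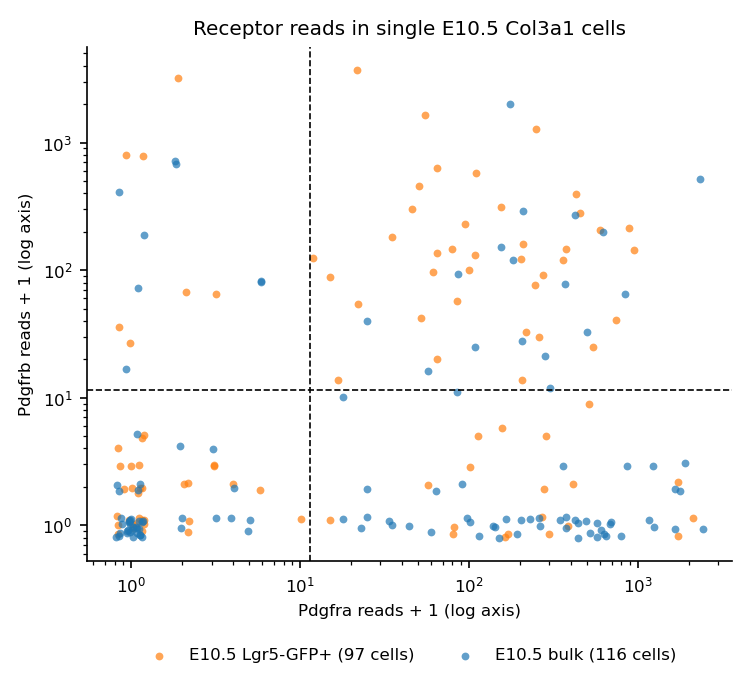
Reads of *Pdgfra* (horizontal) and *Pdgfrb* (vertical) in each of the 213 E10.5 *Col3a1* cells, as reads + 1 on log axes, coloured by sort, with dashed lines at the limit of 10 reads and points shifted slightly so that overlapping cells can be seen. Of these cells 69 lie in the *Pdgfra* only quadrant, 55 in the quadrant of both and 15 in that of *Pdgfrb* only.

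The receptors differed in how they varied with the sort. *Pdgfra* was found in similar shares of the E10.5 *Col3a1* cells of both sorts, 57.8% (48.2–66.9) of bulk and 58.8% (48.3–68.7) of 97 Lgr5-GFP+ cells, while *Pdgfrb* was found in 21.6% (14.5–30.1) of bulk and 46.4% (36.2–56.8) of Lgr5-GFP+ cells. Both receptors were present in 17 bulk cells (14.7%, 8.78–22.4) and 38 Lgr5-GFP+ cells (39.2%, 29.4–49.6), and *Pdgfra* only in 43.1% and 19.6%. The shares with *Pdgfrb* only (6.90% and 7.22%) and with neither receptor (35.3% and 34.02%) lay close together. Among *Pdgfra* cells, *Pdgfrb* was found in 17 of 67 bulk cells (25.4%, 15.5–37.5) and in 38 of 57 Lgr5-GFP+ cells (66.7%, 52.9–78.6). Among cells without *Pdgfra* it was found in 16.3% of bulk and 17.5% of Lgr5-GFP+ cells. At the limit of 10 reads the difference between sorts thus lay in the *Pdgfra*-positive cells. Below this limit it did not lie there alone. Of the cells with neither receptor, 8 of 41 bulk (19.5%) and 17 of 33 Lgr5-GFP+ cells (51.5%) had at least 1 *Pdgfrb* read.

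By pool, 1 to 5 in order, *Pdgfrb* was found in 8 of 23, 1 of 11, 13 of 19, 19 of 29 and 4 of 15 Lgr5-GFP+ cells, and in 4 of 24, 3 of 21, 7 of 25, 5 of 23 and 6 of 23 bulk cells. The Lgr5-GFP+ share was higher in pools 1, 3 and 4, close to the bulk share in pool 5 and below it in pool 2. In pools 3 to 5 together it was 57.1% (44.05–69.5) against 25.4% (15.8–37.1), and in pools 1 and 2 it was 26.5% against 15.6%. Lgr5-GFP+ cells also had more detected genes, with a median of 6590 against 5379.5, and its part in the *Pdgfrb* share was not tested. In cells thinned to the same 100000 reads the shares were 53.6% and 23.3%. *Lgr5* itself passed 10 reads in 25 of the 97 Lgr5-GFP+ cells (25.8%, 17.4–35.7) and in 4 of the bulk cells (3.45%, 0.947–8.59).

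**Figure D3:**
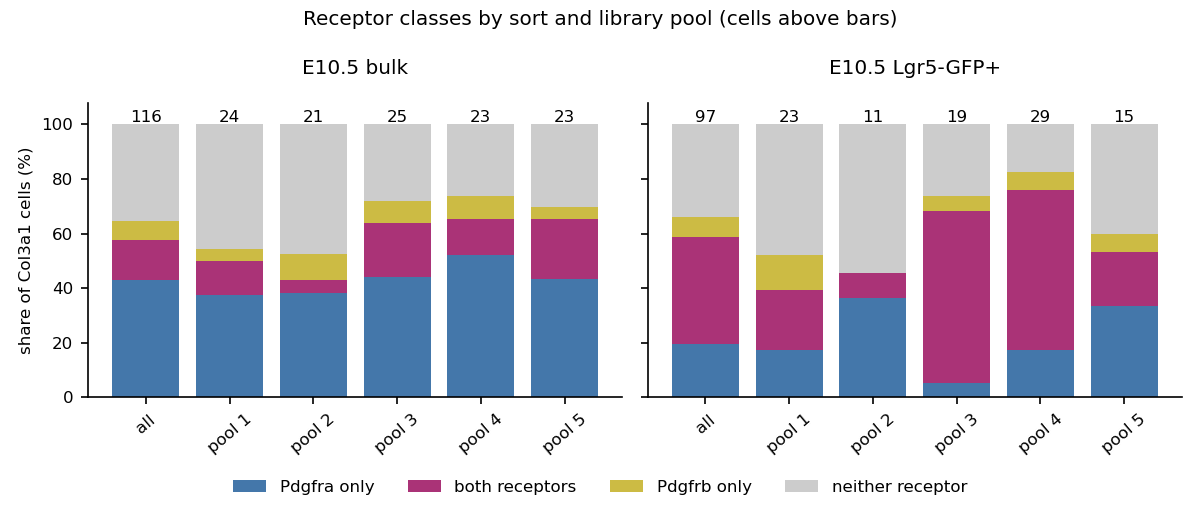
Share of E10.5 *Col3a1* cells with *Pdgfra* only, both receptors, *Pdgfrb* only or neither, as stacked bars in percent for each sort, over all pools and by pool, with the number of cells at each bar. Both receptors were found in 14.7% of bulk and 39.2% of Lgr5-GFP+ cells.

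In summed level, *Pdgfrb* stood at 43.5 RPM in bulk and 144.38 RPM in Lgr5-GFP+ cells, a log2 ratio of 1.73 that was above 0 in 4 of 5 pools and ran from -2.40 to 2.95. With each pool left out in turn it ran from 1.41 to 2.03. *Pdgfra* stood at 225 RPM and 145.05 RPM, a log2 ratio of -0.63 (-1.64 to 0.22 by pool). Single cells reached 1773 RPM of *Pdgfrb* in bulk and 3005 RPM in Lgr5-GFP+ cells, and the sorts overlapped throughout. Of the 6 members above 1 RPM, *Pdgfrb* was at least 2-fold higher in Lgr5-GFP+ cells and *Pdgfd* and *Des* at least 2-fold lower, while 14.4% of all genes were that much higher and 16.1% that much lower. The median log2 ratio of all genes was -0.03. *Pdgfd* stood at 57.5 RPM in bulk and 23.1 RPM in Lgr5-GFP+ cells, but its log2 ratio of -1.31 ran from -3.40 to 3.36 over pools, so no direction held. The ratios of *Pdgfa* (0.11, from -2.15 to 3.999) and *Pdgfc* (0.28, from -1.27 to 3.35) also lay on both sides of 0 over pools.

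The ligands were spread more widely than the receptors. *Pdgfc*, a ligand with a CUB domain that must be cleaved before it binds *Pdgfra*, was the most abundant member per kilobase of exon in *Col3a1* cells (24.9 RPM per kb) and in cells with no marker (29.5 RPM per kb). It passed 10 reads in 96 *Col3a1* cells (39.3%, 33.2–45.8), in 26.4% (20.1–33.5) of cells with no marker, in 9.26% of *Afp* cells and in 0 *Klf1* cells, which allows up to 2.31%. Per kilobase at E10.5, *Col3a1* cells ranked the members as *Pdgfc* (25.5), *Pdgfra* (18.8), *Pdgfrb* (16.3), *Pdgfd* (13.3), *Des* (9.80), *Pdgfa* (4.598) and *Pdgfb* (0.0155 RPM per kb). The ranges over pools overlapped between each pair of neighbours in this order other than *Pdgfa* (0.0415 to 6.69) and *Pdgfb* (0 to 0.0344), so the order of the first 6 is not firm. For instance, *Pdgfc* ran from 13.7 to 33.3 and *Pdgfrb* from 2.34 to 45.3 RPM per kb.

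*Pdgfa*, whose chain binds *Pdgfra* alone, was the member with the largest share of *Afp* cells. It passed in 13 of 54 *Afp* cells (24.1%, 13.49–37.6), in 40 of 244 *Col3a1* cells (16.4%, 11.98–21.6), in 25 cells with no marker (14.04%, 9.30–20.03) and in 0 *Klf1* cells. Its level was 29.7 RPM in *Afp* and 38.3 RPM in *Col3a1* cells, a log2 ratio of 0.37 that ran from -1.61 to 7.65 over 4 pools and was above 0 in 2 of them, so no order between these classes held. All 13 *Afp* cells with *Pdgfa* were E10.5 Lgr5-GFP+ cells (13 of 47), against 0 of 6 E10.5 bulk cells. By pool they made up 0 of 27 in pool 2, 7 of 11 in pool 3, 1 of 5 in pool 4 and 4 of 9 in pool 5. The share in *Afp* cells was therefore 48.1% without pool 2. It was 3.45% without pools 3 to 5. Among E10.5 *Col3a1* cells *Pdgfa* too was rare in pools 1 and 2, in 2 of 47 and 0 of 32 cells, against 8 of 44, 10 of 52 and 9 of 38 in pools 3 to 5.

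Ligand reads did not follow the receptor split in a single way. *Pdgfc* was found in 28 of 69 cells with *Pdgfra* only (40.6%), 19 of 55 with both (34.5%), 7 of 15 with *Pdgfrb* only (46.7%) and 35 of 74 with neither (47.3%), and *Pdgfa* in 11.6%, 18.2%, 13.3% and 12.2% of the same classes. *Pdgfd*, a β receptor ligand that also carries a CUB domain, was found in 14 of 69 (20.3%), 12 of 55 (21.8%), 0 of 15 (up to 21.8%) and 6 of 74 (8.11%). Its summed level was 82.6, 33.4, 0.102 and 18.6 RPM. *Pdgfd* itself passed in 13.52% of all *Col3a1* cells, 6.74% of cells with no marker, 4.43% of *Klf1* and 1.85% of *Afp* cells. At E10.5 its reads lay mainly in cells with the α receptor, at 26 cells with *Pdgfra* (20.97%) against 6 without (6.74%). Of the 6 members above 1 RPM, *Pdgfd* and *Pdgfra* itself were at least 2-fold higher with *Pdgfra* only than with *Pdgfrb* only, where 38.1% of all genes were that much higher and 14.5% that much lower. The receptors were set apart by the split itself. The *Pdgfc* ratio of the same classes was -0.74, but it was 7.30 without pools 3 to 5, so it had no firm direction.

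Taking receptors and ligands together, 72 of the 213 cells (33.8%) had a receptor and a ligand, 67 (31.5%) a receptor without a ligand, 37 (17.4%) a ligand without a receptor and 37 neither. *Pdgfra* with *Pdgfa* or *Pdgfc*, chains that can bind it, was found in 53 cells (24.9%). Ligands also shared cells with each other, since *Pdgfa* was found in 21 of 89 *Pdgfc* cells (23.6%) and in 8 others (6.45%). At least 2 ligands were found in 36 cells (16.9%). Cells with *Pdgfa* had a median of 6953 detected genes against 5489.5 without, but fewer reads (1140261 against 1242158), and the part of detected genes in these pairs was not tested.

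*Pdgfb*, the chain that binds both receptors and that endothelium and platelets are known to release, was the rarest member. It passed 10 reads in 19 of 653 cells, at 26 to 599 reads and 26.9 to 487 RPM in those cells, and no other cell had more than 5 reads. At E10.5, 0 of 213 *Col3a1* cells passed (up to 1.72%), and the highest cell stood at 4.77 RPM. Of the 19 cells, 13 had no marker, 3 were *Klf1* cells and 3 were E13.5 Lgr5-GFP+ *Col3a1* cells. Read against marker lists, 4 of them carried 3 or more of 8 endothelial genes, 5 carried 3 or more of 8 megakaryocyte genes, 4 carried both and 6 neither. In the 34 cells of any class with 3 or more endothelial genes *Pdgfb* was found in 8 (23.5%, 32.01 RPM), and in the 23 cells with 3 or more megakaryocyte genes in 9 (39.1%, 72.3 RPM). In both sets the receptors were found in 0 cells. Endothelial genes were thus detected although the sort excluded CD31, and 22 cells carried leukocyte genes although it excluded CD45, again with neither receptor. Among the cells with no marker, *Pdgfb* was found in 0 of 48, 0 of 45, 10 of 38, 2 of 21 and 1 of 26 cells of pools 1 to 5.

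Desmin passed in 47 of 244 *Col3a1* cells (19.3%, 14.5–24.8), in 13 cells with no marker (7.30%) and in 0 *Afp* and 0 *Klf1* cells. Its level was 43.5 RPM in *Col3a1* cells, 33.7 RPM with no marker, 0.0754 RPM in *Afp* and 0.0567 RPM in *Klf1* cells. *Des* shares lay close together over the receptor classes, at 20.3%, 16.4%, 13.3% and 20.3% of the E10.5 cells with *Pdgfra* only, both, *Pdgfrb* only and neither. Of all 63 *Des* cells, 17 carried only 3 or more of 10 skeletal muscle progenitor genes, 19 only 3 or more mural and smooth muscle genes (out of 14), 2 both and 25 neither. With the stellate list in place of the mural list, 18 carried muscle genes only, 21 stellate genes only, 1 both and 23 neither. In the cells with no marker, 10 of the 13 *Des* cells carried muscle genes. By pool, *Des* was found in 2 of 47, 2 of 32, 9 of 44, 16 of 52 and 11 of 38 E10.5 *Col3a1* cells, so pools 1 and 2, with fewer detected genes, held few.

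*Des* was lower in Lgr5-GFP+ than in bulk *Col3a1* cells at E10.5, at 13.1 RPM against 56.6 RPM, a log2 ratio of -2.11 that ran from -7.76 to 0.05 and was below 0 in 4 of 5 pools. With each pool left out in turn it ran from -2.97 to -1.79. The shares of cells lay closer, 15 of 97 (15.5%, 8.92–24.2) against 25 bulk cells (21.6%, 14.5–30.1). Cells with muscle genes were more frequent in the Lgr5-GFP+ sort, 9 cells (of 97) against 2. Over all *Col3a1* cells of each sort the muscle list summed to 138.37 RPM in Lgr5-GFP+ and 26.2 RPM in bulk cells. Without the cells carrying muscle or megakaryocyte genes the *Des* ratio was -3.47 and that of *Pdgfrb* 1.89, an alternative chosen after the data were seen. Without pools 3 to 5 the *Des* ratio was -5.23, which lay further from the main ratio than the spread between pools. It rested on the few *Des* cells of pools 1 and 2 given above.

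**Figure D4:**
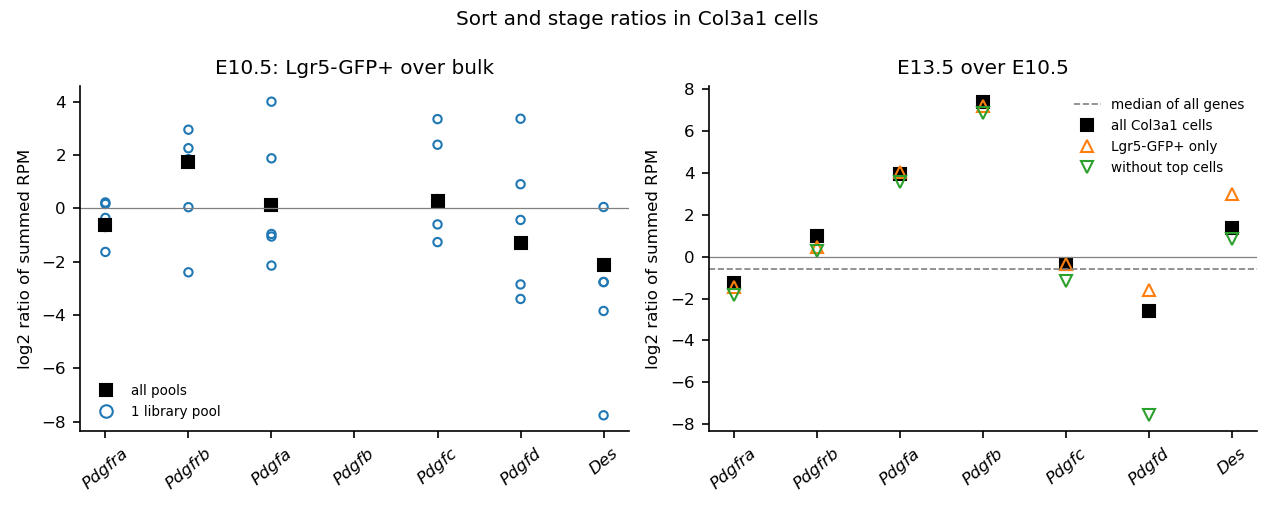
Log2 ratios of the members in *Col3a1* cells. On the left, E10.5 Lgr5-GFP+ over bulk, with squares for all pools and circles for single pools; on the right, E13.5 over E10.5, with squares for all cells, triangles for Lgr5-GFP+ cells alone or without the highest cell of each gene, and a dashed line at the median of all genes (-0.61). *Pdgfrb* (1.73) and *Des* (-2.11) lay on opposite sides in the sort comparison, and *Pdgfa* (3.94) and *Pdgfra* (-1.24) in the stage comparison.

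Cells with muscle genes carried their own set of members. In the 37 cells of any class with 3 or more skeletal muscle progenitor genes, *Pdgfc* was found in 30 (81.1%), *Pdgfa* in 20 (54.1%), *Des* in 19 (51.4%), *Pdgfrb* in 4 and *Pdgfra* in 1 (2.70%). In the 616 other cells the shares were 19.6% for *Pdgfc*, 9.90% for *Pdgfa*, 7.14% for *Des* and 25.6% for *Pdgfra*. The ligands and *Des* were thus frequent where the α receptor was nearly missing. Among the 213 E10.5 *Col3a1* cells, 11 carried muscle genes, and of these *Pdgfc* was found in 10, *Pdgfa* and *Des* in 7 each and *Pdgfra* in 0.

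The other lists were carried by overlapping sets of E10.5 *Col3a1* cells. In the 72 cells with 3 or more stellate cell genes *Pdgfra* was found in 72.2% and *Pdgfrb* in 44.4%, against 51.1% and 26.95% of the rest. *Des* was found in 15 of these 72 cells and in 40 of all 213 cells, so its share was similar. In the 53 cells with 3 or more mural genes *Pdgfrb* was found in 49.1% against 27.5%, *Des* in 28.3% against 15.6% and *Pdgfd* in 28.3% against 10.6%. In the 62 cells with 3 or more mesothelial and septum transversum genes *Pdgfra* was found in 70.97% against 52.98%, *Pdgfc* in 58.1% against 35.1% and *Pdgfd* in 30.6% against 8.61%. In the 13 cells with 3 or more heart muscle genes *Pdgfd* was found in 46.2% against 13% and *Pdgfc* in 76.9% against 39.5%. Both receptors were therefore more frequent with stellate genes, *Pdgfrb*, *Des* and *Pdgfd* with mural genes and *Pdgfc* and *Pdgfd* with mesothelial and heart genes. Cells positive for a member also had more detected genes, for instance a median of 6618 against 5481 for *Des*, and its part in these shares was not tested. In the 69 cells of any class with 3 or more hepatoblast genes, *Pdgfa* was found in 16 (23.2%).

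**Figure D5:**
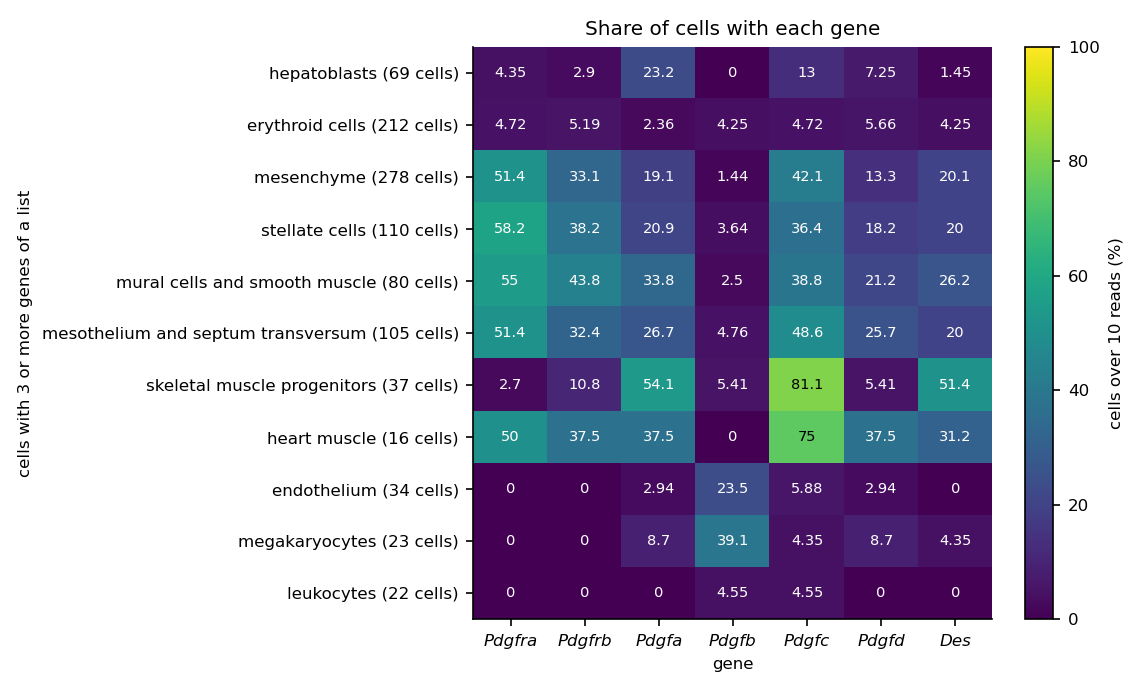
Share of cells with more than 10 reads of each member, in percent, among the cells that carried 3 or more genes of each of 11 marker lists. Cells with skeletal muscle progenitor genes were high for *Pdgfc* (81.1%) and low for *Pdgfra* (2.70%), and those with megakaryocyte genes were high for *Pdgfb* (39.1%).

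Between E10.5 and E13.5 the members differed in direction in the *Col3a1* class, but only 31 cells were available at E13.5 and 28 of them were Lgr5-GFP+. *Pdgfra* was found in 8 of 31 cells (25.8%, 11.9–44.6) against 58.2% (51.3–64.9) of 213, and its level was 79.8 RPM against 188.62 RPM. *Pdgfa* was found in 11 of 31 cells (35.5%, 19.2–54.6) against 29 of 213 (13.6%, 9.31–18.96), and its level was 221 RPM against 14.3 RPM. The log2 ratios were -1.24 for *Pdgfra*, 0.99 for *Pdgfrb*, 3.94 for *Pdgfa*, 7.41 for *Pdgfb*, -0.34 for *Pdgfc*, -2.59 for *Pdgfd* and 1.36 for *Des*, beside a median of -0.61 over all genes. Of the 7 members 3 were at least 2-fold higher and 2 at least 2-fold lower, where 17% of all genes were that much higher and 42.8% that much lower. *Pdgfra*, *Pdgfd* and the median gene all stood lower at E13.5, whereas *Pdgfa* and *Pdgfb* stood far above that median.

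Few cells carried these levels. The highest E13.5 cell gave 39.8% of the *Pdgfra* reads, 49.6% of *Pdgfrb*, 36.95% of *Pdgfa*, 47.9% of *Pdgfc*, 42.04% of *Des* and 97.5% of *Pdgfd*, and *Pdgfb* rested on 3 cells. Both alternatives that follow were chosen after the data were seen. With the highest cell of each stage left out, the ratios were -1.85 for *Pdgfra*, 0.27 for *Pdgfrb*, 3.57 for *Pdgfa*, 6.89 for *Pdgfb*, -1.16 for *Pdgfc*, -7.58 for *Pdgfd* and 0.86 for *Des*, so each kept its sign. Within Lgr5-GFP+ cells they were -1.44, 0.45, 4.04, 7.20, -0.34, -1.59 and 3.003 in the same order, with 3 of 7 members at least 2-fold higher and 2 lower against 18.9% and 42.6% of all genes. Within pool 2, which held 16 of the 28 E13.5 Lgr5-GFP+ *Col3a1* cells and alone had enough cells of both stages, they were -3.13, 2.45, 10.81, 7.19, -2.02, -0.54 and 3.06. Without pool 2 the ratios were -0.35 for *Pdgfra*, -0.12 for *Pdgfrb* and 0.50 for *Pdgfc*, so that of *Pdgfra* was less than 2-fold and those of *Pdgfrb* and *Pdgfc* changed sign, whereas *Pdgfa* was at 3.63.

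Marker lists of other cell types also differed with the stage, in both directions. The megakaryocyte list summed to 2701 RPM in E13.5 and 14.9 RPM in E10.5 *Col3a1* cells and the erythroid list to 1653 and 44.9 RPM. In the same order the muscle list summed to 944 and 77.4 RPM and the stellate list to 3563 and 1168 RPM. The endothelial list summed to 14.8 and 87.2 RPM, the heart muscle list to 84.6 and 274 RPM and the mesothelial and septum transversum list to 811 and 817 RPM. Among all 80 E13.5 Lgr5-GFP+ cells, 4 carried 3 or more megakaryocyte genes. Within Lgr5-GFP+ cells the erythroid list summed to only 188.78 and 36.1 RPM, whereas the megakaryocyte list summed to 2935 and 14.3 RPM. Of the 11 E13.5 *Pdgfa* cells 5 carried muscle genes, whereas all 8 *Pdgfra* cells carried none. Without the cells carrying muscle or megakaryocyte genes, also chosen after the data were seen, the ratios were -0.98 for *Pdgfra*, 1.27 for *Pdgfrb*, 3.85 for *Pdgfa*, 4.57 for *Pdgfb*, -1.98 for *Pdgfc*, -2.34 for *Pdgfd* and 1.66 for *Des*. *Pdgfa* was about as much higher without them, while *Pdgfc* then stood more than 2-fold lower. The *Pdgfa* ratio then rested on 6 positive E13.5 cells, with 24 to 2832 reads each. At E13.5 the receptor split was 3 cells with *Pdgfra* only, 5 with both, 2 with *Pdgfrb* only and 21 with neither. In cells with no marker, *Pdgfra* was found in 18 at E10.5 (17.6%) and in 0 of 76 at E13.5 (up to 4.74%).

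Genes that act with the PDGF pathway were read in the same comparisons. Of 13 genes of ligand activation and binding, which include proteases that cut the CUB domain and secreted proteins that hold PDGF, 11 were tested between sorts, with 3 at least 2-fold higher in Lgr5-GFP+ cells and 1 lower (median log2 -0.05, all genes -0.03). *Pcsk5*, a proprotein convertase, was higher by 1.92 log2 units (170 against 44.99 RPM), and *Plat*, the tissue plasminogen activator that cuts *Pdgfc*, was at -1.66 (49.1 against 155.25 RPM) and below 0 in all 5 pools. *Pdgfrl*, which codes for a secreted receptor-like protein, was at 1.42 and above 0 in all 5 pools. Between stages 4 of the 11 were higher and 2 lower, beside 17% and 42.8% of all genes. Against *Afp* cells 6 of 12 were higher in *Col3a1* cells and 3 lower, beside 37% and 14.2% of all genes, with *Sparc*, a secreted PDGF-binding protein, at 1323 against 68.2 RPM. Against *Klf1* cells 10 of 11 were higher, beside 40% of all genes.

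Receptor signal transduction genes were 2-fold apart between classes in smaller shares than all genes, but the part of expression level in this was not tested. The shares of all genes take in genes from 1 RPM upward, and between sorts a smaller share was 2-fold apart from 10 RPM upward. Of 23 genes such as *Plcg1* and *Src*, 6 were at least 2-fold higher and 1 lower in *Col3a1* than in *Afp* cells (median 0.20, with 37% and 14.2% of all genes), and 4 higher and 2 lower than in *Klf1* cells (0.21, with 40% and 15%). Between sorts 1 was higher and 4 lower in Lgr5-GFP+ than in bulk cells (-0.22, with 14.4% and 16.1%). Between stages 7 were higher and 6 lower, with 17% and 42.8% of all genes. Of 11 immediate early genes, which growth factor signals switch on, 9 were higher in *Col3a1* than in *Afp* cells, among them *Fos* (915 against 160.91 RPM) and *Egr1* (314 against 62.1 RPM), while 0 differed 2-fold between sorts. All counts against *Afp* cells here and in the lists that follow stand beside 37% of all genes higher and 14.2% lower. Cell dissociation also acts on these genes, and its part was not tested. Of 11 related receptors and ligands 4 were higher and 5 lower in *Col3a1* than in *Afp* cells, with *Kitl*, the KIT ligand, at 63.02 against 349 RPM. Of 6 intermediate filament genes 3 were higher and 2 lower, with *Vim* at 696 against 34.8 RPM and *Nes* at 102.68 against 4.1 RPM, and desmin is read beside these as the muscle member of the family.

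Cells with *Pdgfra* only and those with *Pdgfrb* only could be compared over 69 and 15 cells. Of all genes 38.1% were at least 2-fold higher with *Pdgfra* only and 14.5% with *Pdgfrb* only, against which the counts of the lists stand. Of 11 mural and smooth muscle genes 4 were higher with *Pdgfra* only and 5 with *Pdgfrb* only. *Acta2*, smooth muscle actin, stood at 396 RPM with *Pdgfra* only and 914 RPM with *Pdgfrb* only. Of 10 stellate genes 4 were higher with *Pdgfra* only and 2 with *Pdgfrb* only. *Dcn*, a matrix proteoglycan of this list, stood at 664 against 8.6 RPM. Of the 10 mesothelial genes 5 were higher and 3 lower, with *Wt1* at 94.1 against 8.0 RPM and *Tbx18* at 18.7 against 105.09 RPM, so these transcription factors of the same tissue lay on opposite sides. No pool held 5 cells of both classes, and the direction could not be checked within pools. By the naming rule, the 10 genes furthest towards *Pdgfra* only were *Nrxn3* (log2 4.50), *Igfbp5* (3.92), *Sucla2*, *Pkdcc* (3.74), *Chd3*, *Etl4*, *Cdk16*, *Praf2*, *Ptbp3* and *Sfxn1* (2.98). The 10 furthest towards *Pdgfrb* only included *Capn2* (-3.07), *Hdgfl3*, *Mlx*, *Os9*, *Mageb16*, *Nol10*, *Ints6*, *Plcb1* and *Mgst3* (-2.27). The 15 cells with *Pdgfrb* only are few, and a single cell gave 9.12% to 75.7% of the reads of these genes. For *Nrxn3* the share of cells with at least 3 reads ran the other way, at 63.8% with *Pdgfra* only and 80% with *Pdgfrb* only.

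Finally, the genes whose levels over the 213 E10.5 *Col3a1* cells were most like each member were found among 7382 genes by Pearson's r of log2(RPM + 1). These cells share 5 pools and differ in reads and detected genes, so the values are a description. For *Pdgfra* the first genes were *Derl1* (0.32), *Serinc1* (0.30), *Pkdcc* (0.30), *Mfap4* (0.30) and *Tns3* (0.29), of which *Pkdcc* ran from 0.24 to 0.39 over pools, *Serinc1* from 0.09 to 0.56 and *Tns3* from -0.23 to 0.50. For *Pdgfrb* they included *Bmp4* (0.31), *Zfp9* (0.29), *Samd4* (0.29) and *Morn1* (0.28), and each of these had a pool with r below 0. For *Des* they were *Pdhx* (0.35), *Gusb* (0.35), *Hbp1* (0.34), *Nrip1* (0.32) and *Ubr1* (0.32). The receptors had r = 0.19 with each other, and *Pdgfc* had r = -0.14 with both *Pdgfra* and *Pdgfrb*. All of these are weak, beside medians over all genes of 0.06 for both receptors and 0.10 for *Des*.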

How the data were processed

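Raw read counts per gene, deposited by the authors as 1 table of 54195 genes by 653 cells, were used. Per the study's methods, single-end reads of an adapted, unstranded Smart-seq2 protocol were aligned with STAR 2.6.0c to GRCm38 with spike-ins, and uniquely mapped reads were counted with Subread 1.6.2 on Ensembl 93. The authors had already left out cells with few reads or genes or with many spike-in or mitochondrial reads. The table held 0 mitochondrial genes with reads. Their batch-corrected table of variable genes was not used. All columns were matched to samples by exact title, and 0 columns were left unused.

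Identifiers were named with the GENCODE M21 annotation (54128 matched). Per group of cells, reads were summed and given per 1000000 reads on all genes (RPM). A cell was positive with more than 10 reads. A gene entered a comparison at 1 RPM or more over both groups, and differences of at least 2-fold were counted. Pools of at least 5 cells gave the pool values; no label ties the study's sorting days to pools. No cell type annotation and no doublet caller was used. The members and lists were chosen with earlier results of these data known. Named genes were the members, examples from the fixed lists, the 5 genes with the highest r to *Pdgfra*, *Pdgfrb* and *Des* (at least 3 reads in 20% of E10.5 *Col3a1* cells) and the 10 with the largest RPM ratio each way between receptor classes (at least 3 reads in 50% of the higher class); a few of these are not reported here. The scripts were tested on simulated data with known ratios. Depth was 463347 to 2279700 reads per cell, and reads without molecular identifiers are not independent molecules, so intervals cover counting error only. Alternatives were other read limits, thinning, other scalings and filters, and leaving out pools. Python 3.11.15, numpy 2.4.6, pandas 2.3.3, scipy 1.17.1 and matplotlib 3.10.9 were used.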

Additional observations from a re-analysis of the deposited data

Results flagged for a closer look

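In E10.5 *Col3a1* cells the level of *Pdgfrb* was 248 RPM in pool 1, far from the other pools, of which the nearest stood at 63.9 RPM and the lowest at 12.8 RPM. The gap was 0.783 of the whole range over 5 pools, above Dixon's 95% limit for so many values. It was the only 1 of 25 sets of pool values past the limit, and chance flags about 1 in 20. In shares of cells pool 1 did not stand apart, with *Pdgfrb* in 12 of 47 cells.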

How the results depend on the processing

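Under 23 alternatives, 1550 of 1703 values stayed within the spread between pools, the counting interval or, for shares of genes, a fixed fold. The spread is wide for ratios whose pools hold few cells, so this count is no measure of how firm those ratios are. It includes stage ratios that changed sign without pool 2, -0.12 for *Pdgfrb* and 0.50 for *Pdgfc*. Counting a cell as positive at 1 read gave, among E10.5 *Col3a1* cells, 69.95% with *Pdgfra*, 53.99% with *Pdgfrb* (37.9% bulk, 73.2% Lgr5-GFP+), 42.7% with both and *Pdgfrb* in 61.1% of *Pdgfra* cells, and *Pdgfa* in 44.4% of *Afp* cells. More than 50 reads gave 49.8% with *Pdgfra*, 24.4% with *Pdgfrb* (36.1% Lgr5-GFP+), 15.5% with both and 31.1%. Without pools 3 to 5, whose cells had more detected genes, these were 44.3%, 20.3% (26.5% Lgr5-GFP+), 12.7% and 28.6%, *Pdgfa* was found in 3.45% of *Afp* cells, 57.1% of genes lay at least 2-fold apart between sorts (30.6% with all pools) and the *Pdgfc* log2 ratio of *Pdgfra* only over *Pdgfrb* only was 7.30. From 10 RPM upward, 16.2% of genes lay 2-fold apart between sorts. With each pool left out in turn, the *Pdgfa* share of *Afp* cells ran from 13.95% to 48.1%. The order of the sorts for *Pdgfrb* was the same under each of these read limits and without pools 3 to 5. The causes were not tested. No paired analysis was possible because the labels carry no replicate numbers and no test was made; ratios within pools stand in the report instead. With 1 sample per group and few E13.5 *Col3a1* cells, stage differences have no replicate check, and reads at or below 3 are within the limit that a count of 0 allows.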
